A study of Mus musculus with 4 samples.

Results

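The genes of intracellular cobalamin (vitamin B12) metabolism were looked up by symbol in an RNA-seq table of mouse testis, and all 10 were found among its 24420 symbols. They are Cd320 (uptake), Lmbrd1 and Abcd4 (export from the lysosome), Mmachc and Mmadhc (processing and routing), Mmaa, Mmab and Mut (the mitochondrial branch), and Mtr and Mtrr (the cytosolic branch). The list was selected on the level of Mmadhc, already known to be higher in mutant than in wild-type testis, so the genotype difference of Mmadhc is given below as a description, and nothing is supported with it or with its place in a count of calls. The 9 other genes were listed for their function. All 10 were measured at 1 CPM (read counts scaled to library size) or more in every library, and all 10 were among the 15364 genes tested.

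The tissue came from mice of the FVB strain that were either mutant for Lrrc8a (MUT, 2 libraries) or wild type (WT, 2 libraries). Lrrc8a encodes an essential subunit of the volume-regulated anion channel, and the series concerns loss of that channel's activity in male infertility. The sources used here do not give the kind of mutation, the age of the mice or whether replicate libraries stem from different mice. The p-values therefore measure only how far these libraries spread, which may be technical. The genotype label MUT is written in capitals throughout and is distinct from the gene Mut, which encodes methylmalonyl-CoA mutase.

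Cobalamin reaches cells bound to transcobalamin, is taken up by the receptor CD320 and is freed in the lysosome, from which LMBD1 and ABCD4 pass it to the cytosol. There MMACHC strips the upper ligand from the cobalt and, together with MMADHC, hands cobalamin on to the cytosolic or the mitochondrial branch. In the cytosol methionine synthase (Mtr), kept active by its reductase (Mtrr), uses methylcobalamin to turn homocysteine into methionine, which feeds methylation reactions and regenerates folate. In mitochondria the adenosyltransferase MMAB makes adenosylcobalamin, the chaperone MMAA guards its loading, and methylmalonyl-CoA mutase uses it to turn methylmalonyl-CoA into succinyl-CoA. In humans, inherited defects in each of these genes are known and give methylmalonic acid, homocysteine or both in excess.

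The start regions of 7 of the genes were found in the RefSeq promoter windows (build GRCm38.p6, from 250 bases before to 50 after an annotated start). Mmadhc, Mut and Abcd4 had no window there. Mmachc is the gene whose transcription is known, from human cells, to depend on HCFC1 with THAP11 and ZNF143, so the windows were searched on both strands for the letters ACTACANNT, part of the element those factors bind. The windows of Mmachc and Mtr held 1 match each, while 4.16% of all 32851 promoter windows held one. The 5 other genes with a window had no match in theirs, which says only that these letters were not in those windows. The Mmachc window lies on the minus strand at chr4:116708336-116708635 and the Mtr window on the minus strand at chr13:12258064-12258363. Both are shown 5′ to 3′ with the match in capitals; in Mmachc it begins at base 230 of the window and reads on the other strand, and in Mtr it begins at base 60 and reads along the window. The window of Mmab, on the minus strand at chr5:114443978-114444277, is shown because Mmab and the mevalonate kinase gene Mvk are divergently transcribed from it. Its capitals mark the 210 bases from the annotated start of Mvk to that of Mmab (GENCODE vM21).
Mmachc: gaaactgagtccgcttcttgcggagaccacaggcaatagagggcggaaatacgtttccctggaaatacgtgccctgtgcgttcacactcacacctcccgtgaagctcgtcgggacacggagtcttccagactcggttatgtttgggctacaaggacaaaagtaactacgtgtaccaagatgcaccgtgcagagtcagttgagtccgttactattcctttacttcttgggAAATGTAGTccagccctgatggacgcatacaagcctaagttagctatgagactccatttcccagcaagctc
Mtr: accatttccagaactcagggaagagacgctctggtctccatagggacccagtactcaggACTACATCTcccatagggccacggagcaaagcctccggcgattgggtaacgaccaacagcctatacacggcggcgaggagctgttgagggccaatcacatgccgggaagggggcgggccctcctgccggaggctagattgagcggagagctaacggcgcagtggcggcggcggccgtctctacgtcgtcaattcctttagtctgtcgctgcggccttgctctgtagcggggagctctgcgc
Mmab: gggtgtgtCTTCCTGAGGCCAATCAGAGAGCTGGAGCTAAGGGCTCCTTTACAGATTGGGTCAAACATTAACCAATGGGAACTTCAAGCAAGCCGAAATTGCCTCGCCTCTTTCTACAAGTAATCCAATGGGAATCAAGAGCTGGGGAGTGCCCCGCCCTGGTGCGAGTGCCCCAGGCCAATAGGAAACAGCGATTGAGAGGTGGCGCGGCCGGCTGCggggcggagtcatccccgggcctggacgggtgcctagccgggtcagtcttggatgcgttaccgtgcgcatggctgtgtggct

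No match to the letters GCGCATGCG (NRF1 type, in 1.75% of all windows), CCGGAAGT (ETS type, 3.89%) or TCACCCCAC (sterol response element type, 0.551%) was found in any of the 11 windows of the 7 genes, on either strand. None of the strings searched contains another. These windows held 13 to 40 CpG dinucleotides in 300 bases, against a median of 7 over all windows, and had a GC content of 50.7% to 76%, against a median of 52.7%.

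The libraries held 40426400 to 68192776 reads assigned to genes. Their CPM summed to 992487 and 987723 in the MUT and to 1011463 and 1008533 in the WT libraries. These sums differ, so the deposited values were not scaled to the plain total of these reads alone. Lrrc8a itself had 13.5 and 15.9 CPM in the MUT libraries, against 18.2 and 17.1 CPM in the WT libraries, a difference that was not called (log2 fold change -0.26, SE 0.0998, limma adjusted p = 0.218), so its level does not check the genotype labels. The labels give testis as the source and germ cells as the cell type, and markers of somatic cells were present: the summed level of 7 Leydig cell markers was 1089.5 and 1132 CPM in MUT and 938 and 921 CPM in WT libraries. The summed levels of the Sertoli (931 and 962 CPM against 892 and 849 CPM) and spermatogonia markers (64.1 and 64.9 against 51.1 and 56.7 CPM) were also higher in both MUT than in both WT libraries. In these lists 6 of 7 Leydig, 6 of 8 Sertoli and 5 of 6 spermatogonia markers had a log2 fold change above 0. Of all tested genes, 49.6% did. The macrophage markers were mixed: Mrc1, the most abundant of the 5, had 38.4 and 33.7 CPM in the MUT libraries, against 28.6 and 31.3 CPM in the WT libraries, while Cd74 had 4.55 and 4.69 CPM in the MUT libraries, against 7.94 and 6.51 CPM in the WT libraries, and the other 3 overlapped. Their sum was 68.8 and 68.1 CPM in the MUT libraries, against 64.3 and 64.6 CPM in the WT libraries. Those of 5 peritubular myoid markers (94.98 and 104 against 117 and 110.2 CPM) and 6 spermatocyte markers (5514 and 5403 against 5666 and 5620 CPM) were lower in both MUT libraries, and those of 8 spermatid markers overlapped (12983 and 12290 against 13960 and 12554 CPM). In whole tissue, fewer cells of a type and less RNA per cell cannot be told apart. Of all tested genes, limma called 0.482% higher and 0.267% lower. By limma 2 of the 7 Leydig, 1 of the 8 Sertoli and 1 of the 6 spermatogonia markers were called higher. Cd74 was called lower, no other marker was called, and none was at 0. The part of these shifts in the results below was not tested.

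Mmadhc stood out within the route. It had 122 and 128 CPM in MUT libraries (5975 and 5236 reads), against 73.8 and 76.7 CPM in WT libraries (4976 and 3817 reads). The lowest MUT library lay far above the highest WT library, and the 2 libraries of each genotype were close together, averaging 125 ± 3.84 CPM for MUT, against 75.3 ± 2.08 CPM for WT (SD, n = 2 each). On the log2(CPM + 0.5) scale the difference, MUT minus WT, was 0.73 (SE 0.0681). Only 0.176% of the tested genes had a larger absolute difference. With 1 library left out at a time the difference ranged from 0.70 to 0.76. Mmadhc encodes the protein that binds MMACHC and directs cobalamin to the cytosolic or the mitochondrial branch.

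**Figure D1:**
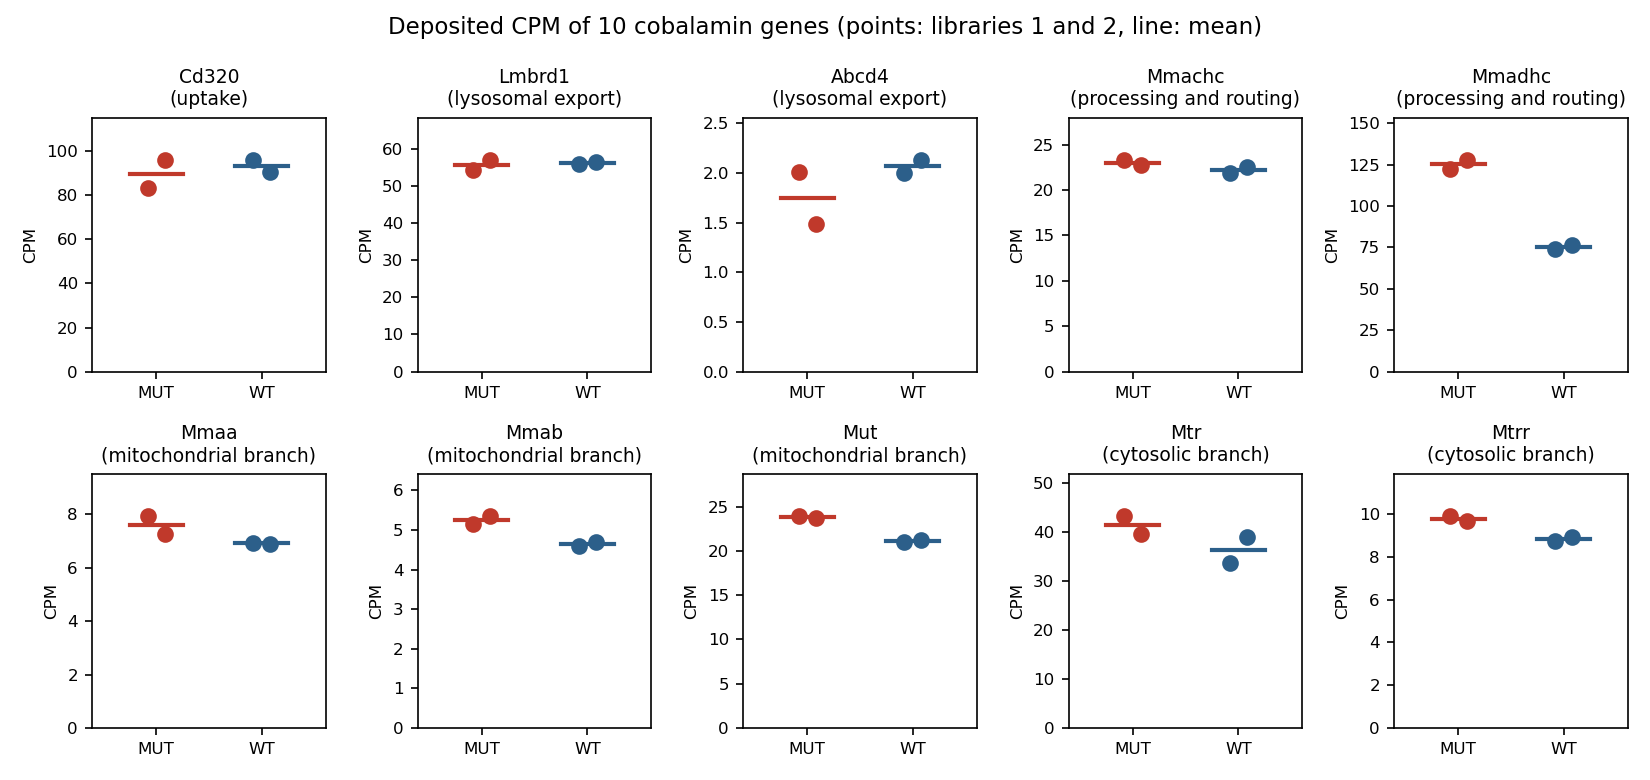
CPM of each of the 10 genes (y axis, from 0) in MUT and WT libraries, ordered along the route; points are libraries 1 and 2 and lines are means. Mmadhc, at 122 and 128 CPM in MUT against 73.8 and 76.7 CPM in WT libraries, has the widest gap between genotypes, while the points of Cd320, Lmbrd1 and Abcd4 overlap.

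Over the whole table a total of 115 genes were called in the limma fit at an adjusted p under 0.05 (0.749% of the tested genes; 0.482% higher and 0.267% lower in MUT). Among the 9 genes listed for their function 0 were called in either direction by limma, and 1, Mtr, had an unadjusted limma p under 0.05, where 14.7% of all tested genes did. Mmadhc, the gene that brought the list about, is among the genes higher in MUT in that table, which follows from its selection and is no evidence. The groups did not overlap, with both MUT libraries above both WT libraries, for 6 of the 9 genes without Mmadhc (23% of all tested genes were so placed). With Mmadhc, whose place follows from its selection, it was 7 of the 10. None of the 10 had both MUT libraries below both WT libraries (22.6% of all tested genes). The median log2 fold change was 0.13 over the 10 genes and 0.13 over the 9 genes without Mmadhc, against -0.0016 over all tested genes. For a single gene, permuting 2 and 2 libraries exactly gives a two-sided p of 0.333 at best, so tests come from the fit over all genes alone.

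**Figure D2:**
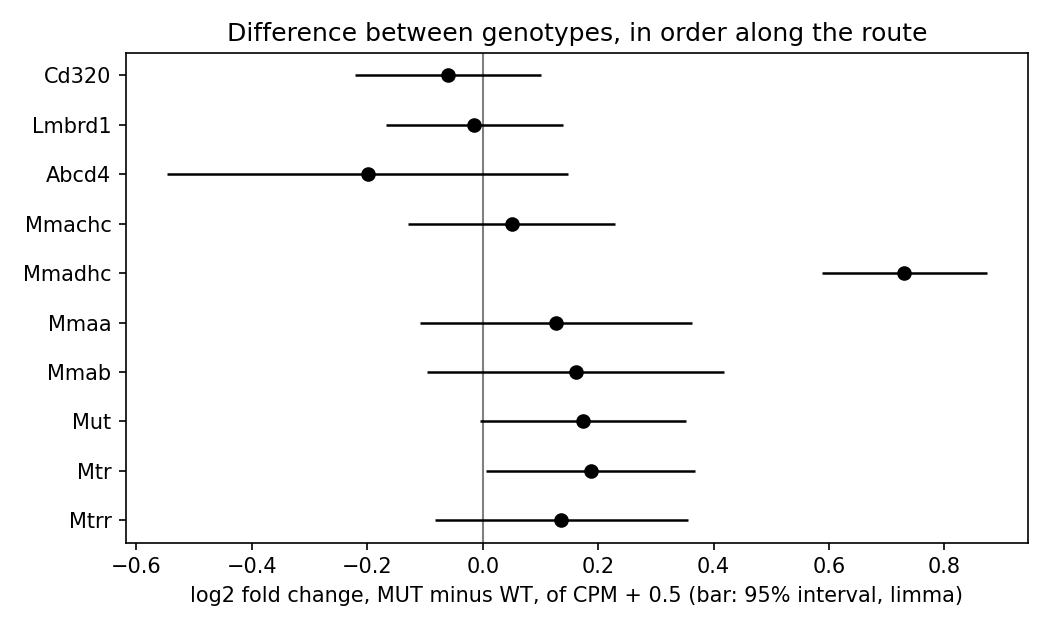
Log2 fold change of CPM + 0.5, MUT minus WT (x axis), for the 10 genes along the route (y axis); points are estimates and bars are 95% intervals from limma. Mmadhc lies at 0.73, and the 9 other genes lie between -0.20 and 0.19.

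The partner of Mmadhc showed no such gap. Mmachc (chr4:116702279-116708406, minus strand; positions of genes are from GENCODE vM21 on GRCm38), which encodes the protein that removes the upper ligand and reduces the cobalt, had 23.3 and 22.7 CPM in the MUT libraries, against 21.9 and 22.6 CPM in the WT libraries. The MUT libraries lay just above the WT libraries; MUT 2 and WT 2 nearly touched. Its log2 fold change of 0.05 (95% interval -0.13 to 0.23, limma adjusted p = 0.84) was not called. Per kb of exon, the level of Mmadhc was 5.80 and 6.22 times that of Mmachc in the MUT libraries and 3.73 and 3.76 times in the WT libraries. This ratio carries the difference of Mmadhc and is likewise a description. Its size, like that of the other ratios below, depends on the length taken for each gene, here the union of annotated exons.

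The genes for uptake and lysosomal export overlapped between genotypes. Cd320 (chr17:33843091-33849774, plus strand), which encodes the receptor for transcobalamin-bound cobalamin, had 83.0 and 96.0 CPM in the MUT libraries, against 96.0 and 90.3 CPM in the WT libraries. MUT 1 was the low library there, and the log2 fold change of -0.06 (95% interval -0.22 to 0.10, limma adjusted p = 0.769) was 0.044 without it. Lmbrd1 (chr1:24678630-24766301, plus strand), which encodes the lysosomal membrane protein LMBD1, had 54.1 and 57.0 CPM in the MUT libraries, against 55.8 and 56.3 CPM in the WT libraries. The WT values fell between the MUT values, and the log2 fold change was -0.014 (95% interval -0.17 to 0.14, limma adjusted p = 0.953). Its sign turned when MUT 1 was left out (0.022) and when reads were scaled to the total without the 100 most abundant genes (0.0080). That scaling also moved the median over all tested genes, from -0.0016 to 0.0199, so this turn is not particular to Lmbrd1. Abcd4 (chr12:84601464-84617413, minus strand), the lysosomal ABC transporter that works with LMBD1, was the weakest of the route, with 2.01 and 1.49 CPM in the MUT libraries, against 2.002 and 2.13 CPM in the WT libraries. These values rest on 98 and 61 reads in MUT and 135 and 106 reads in WT libraries, MUT 2 was the low one, and the log2 fold change of -0.20 had a wide 95% interval of -0.55 to 0.15 (limma adjusted p = 0.615). Without MUT 2 it was -0.03, and without MUT 1 it was -0.37.

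The 3 genes of the mitochondrial branch each had both MUT libraries above both WT libraries, by small amounts, and none was called. Mut (chr17:40934685-40961988, plus strand), the methylmalonyl-CoA mutase gene, had 23.9 and 23.8 CPM in the MUT libraries, against 21.0 and 21.2 CPM in the WT libraries. The libraries of a genotype nearly coincided, and the log2 fold change was 0.17 (95% interval -0.0054 to 0.35, limma adjusted p = 0.355). Mut overlaps the start of Cenpq, a centromere protein gene on the other strand, by 363 bases, and reads of the overlap cannot be told apart if the counting ignored strand. Cenpq had 15.1 and 16.2 CPM in the MUT libraries, against 13.6 and 16.6 CPM in the WT libraries, so its groups overlapped. Mmab (chr5:114431034-114444060, minus strand), the gene of the adenosyltransferase that makes adenosylcobalamin, had 5.15 and 5.35 CPM in the MUT libraries, against 4.60 and 4.68 CPM in the WT libraries. Its log2 fold change was 0.16 (95% interval -0.10 to 0.42, limma adjusted p = 0.576). Mmaa (chr8:79263598-79294937, minus strand), the gene of the GTPase that guards the mutase, had 7.93 and 7.28 CPM in the MUT libraries, against 6.94 and 6.90 CPM in the WT libraries. Its log2 fold change was 0.13 (95% interval -0.11 to 0.36, limma adjusted p = 0.643), and 0.07 without MUT 1 or once GC content and length were corrected.

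In the cytosolic branch, too, both genes had higher MUT than WT libraries and neither was called. Mtr (chr13:12182712-12258113, minus strand), the methionine synthase gene, had 43.3 and 39.6 CPM in the MUT libraries, against 33.8 and 39.0 CPM in the WT libraries. MUT 2 and WT 2 were nearly equal, so the gap rested on the other pair of libraries. The log2 fold change of 0.19 had a 95% interval of 0.01 to 0.37 but was not called over all genes (unadjusted p = 0.0431, limma adjusted p = 0.321). It was 0.08 without WT 1, 0.12 without MUT 1, 0.29 without WT 2 and 0.10 with GC content and length corrected. Mtrr (chr13:68560780-68582149, minus strand), which encodes the reductase that restores methionine synthase after its cobalt is oxidised, had 9.90 and 9.65 CPM in the MUT libraries, against 8.75 and 8.95 CPM in the WT libraries. Both MUT libraries were higher, and the log2 fold change was 0.14 (95% interval -0.08 to 0.36, limma adjusted p = 0.578). For the 6 genes other than Mmadhc with a log2 fold change above 0, the estimate stayed above 0 in all 17 alternatives. Many of these could not turn it. A change of filter, variance model or block leaves the estimate as it is. Where groups do not overlap, as in these 6 genes, leaving out 1 library cannot turn the sign. None of the 9 was called in any alternative that kept every library.

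Apart from Mmadhc to Mmachc, the 5 other ratios compared per kb of exon overlapped between genotypes. Mut stood at 4.80 and 5.19 times the level of Mmaa in MUT and at 4.81 and 4.90 times in WT libraries, and at 4.51 and 4.31 times the level of Mmab in MUT and 4.42 and 4.39 times in WT libraries. Mtr stood at 2.66 and 2.50 times the level of Mtrr in MUT and at 2.35 and 2.66 times in WT libraries. Of the lysosomal pair, Lmbrd1 stood at 36.2 and 51.4 times the level of Abcd4 in MUT and at 37.5 and 35.5 times in WT libraries. Between the 2 enzymes that use the cofactor, Mtr stood at 0.802 and 0.740 times the level of Mut in MUT and at 0.715 and 0.816 times in WT libraries. With 2 libraries a genotype, overlap does not show that a proportion was equal.

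Levels per kb of exon spanned a wide range along the route, from Mmadhc at the top (60.9 and 63.6 CPM per kb in MUT, 36.7 and 38.1 in WT libraries) to Abcd4 at the bottom (0.251 and 0.186 in MUT, 0.250 and 0.266 in WT libraries). On this scale Mmadhc lay above 92.8% of tested genes in MUT and above 87.9% in WT libraries, and Abcd4 above 2.04% in MUT and above 3.19% in WT libraries. The order was the same in both genotypes: Mmadhc, Cd320, Mmachc, Lmbrd1, Mut, Mtr, Mtrr, Mmab, Mmaa and Abcd4. In MUT libraries the means below Mmadhc were 31.0 CPM per kb for Cd320, 10.4 for Mmachc, 9.32 for Lmbrd1, 6.30 for Mut, 4.86 for Mtr, 1.88 for Mtrr, 1.43 for Mmab and 1.26 for Mmaa. In WT libraries they were 32.3 CPM per kb for Cd320, 9.99 for Mmachc, 9.41 for Lmbrd1, 5.57 for Mut, 4.27 for Mtr, 1.70 for Mtrr, 1.26 for Mmab and 1.15 for Mmaa. No neighbours in the order overlapped within a genotype when length was taken as the union of annotated exons. With the longest annotated transcript as the length, Mmachc and Lmbrd1 overlapped in both genotypes (10.8 to 11.1 and 10.4 to 10.9 CPM per kb in MUT, 10.4 to 10.7 and 10.7 to 10.8 in WT libraries), so those 2 cannot be ordered. The levels also moved with this length. Mmadhc then averaged 92.7 CPM per kb in MUT and 55.7 in WT libraries, and Abcd4 0.473 in MUT and 0.559 in WT libraries. Levels per kb and the size of ratios between genes therefore hold only for the length chosen. The sources used here do not name the annotation behind the deposited values.

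**Figure D3:**
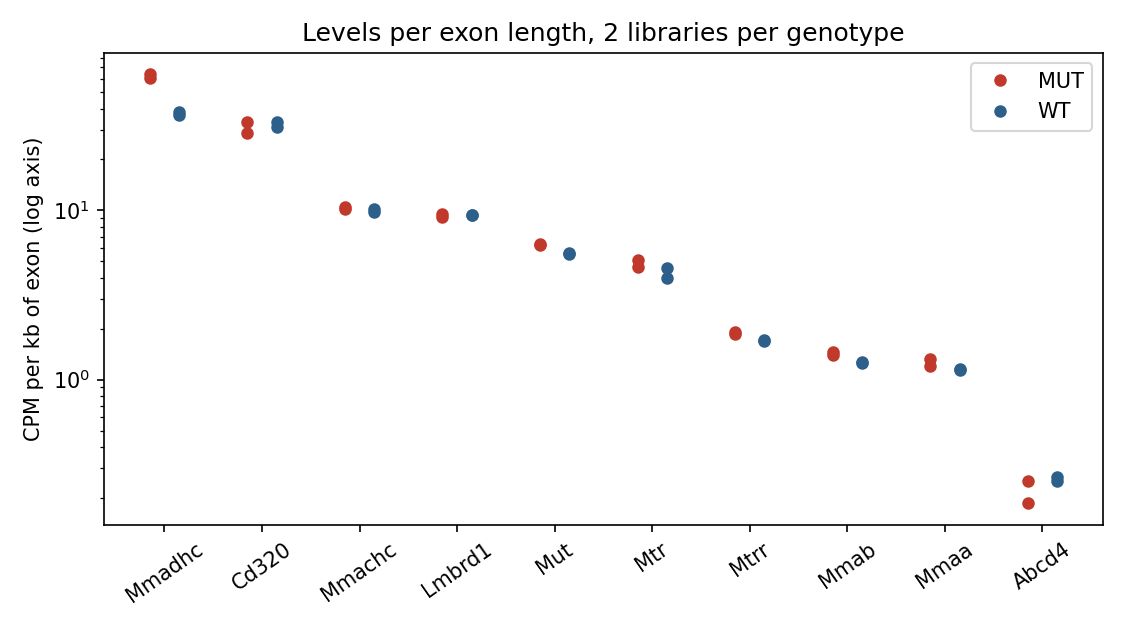
Level per kb of annotated exon (y axis, log scale) of the 10 genes in the order of their WT means; each point is a library, MUT left of WT. Mmadhc is highest (60.9 and 63.6 CPM per kb in MUT, 36.7 and 38.1 in WT libraries) and Abcd4 lowest in both genotypes.

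Summed over the 10 genes, the route took 375 and 391 CPM in MUT and 325 and 329 CPM in WT libraries. Mmadhc made up 32.7% of this sum in both MUT libraries and 22.7% and 23.3% in the WT libraries. The 9 other genes together had 253 and 263 CPM in MUT and 251 and 252 CPM in WT libraries.

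Upstream of 5 of the genes, a gene on the other strand begins within 1 kb. None of the 4 of these partners that could be tested was called, where limma called 0.749% of all tested genes. Mvk, the partner of Mmab, whose start lies 209 bases away, had 12.8 and 12.8 CPM in the MUT libraries, against 13.9 and 12.3 CPM in the WT libraries, with overlapping groups. Ccdc163, which starts 103 bases from Mmachc, had 57.6 and 56.7 CPM in the MUT libraries, against 64.7 and 65.4 CPM in the WT libraries. Both MUT libraries were lower, against the small difference of Mmachc in the other direction, but the log2 fold change of -0.18 was not called (limma adjusted p = 0.23). Fastkd3, a mitochondrial RNA-binding protein gene that starts 85 bases from Mtrr, had 7.32 and 7.92 CPM in the MUT libraries, against 6.93 and 7.78 CPM in the WT libraries, again with overlap. The noncoding gene Gm4890, 186 bases from Mmaa, had 3.24 and 3.98 CPM in the MUT libraries, against 4.84 and 4.46 CPM in the WT libraries (log2 fold change -0.33, limma adjusted p = 0.264). Both of its MUT libraries were lower, while those of Mmaa were higher. The noncoding gene Gm13483 starts 9 bases from Mmadhc and was too weak to be tested, with 16 and 11 reads in MUT and 6 and 11 reads in WT libraries.

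Mmadhc is a protein-coding gene on the minus strand of chromosome 2, from 50279881 to 50296801 on GRCm38 (ENSMUSG00000026766.16), and overlaps no other annotated gene. It lies on the chromosome that also carries Lrrc8a, 20.02 Mb beyond the end of that gene. The nearest tested genes on either side were not called. On the side toward Lrrc8a, Kif5c (505 kb away, log2 fold change -0.19), Epc2 (728 kb, -0.13) and Mbd5 (954 kb, -0.01) lie nearest. On the far side, Rnd3 (834 kb, -0.22), 1700057H21Rik (1124 kb, 0.17) and Rbm43 (1628 kb, 0.11) do. Of all tested genes, limma called 0.482% higher and 0.267% lower, and 49.6% had a log2 fold change above 0. Of the 17 other tested genes within 5 Mb, 0 were called higher and 1 lower, and 8 had a log2 fold change above 0 (median -0.0034). The called one, chosen after its values were seen, is Orc4, which takes part in starting DNA replication, with 14.6 and 13.7 CPM in the MUT libraries, against 21.3 and 26.3 CPM in the WT libraries. The sources used here do not describe the genetic background around the mutated gene, and its part in the level of Mmadhc was not tested.

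**Figure D4:**
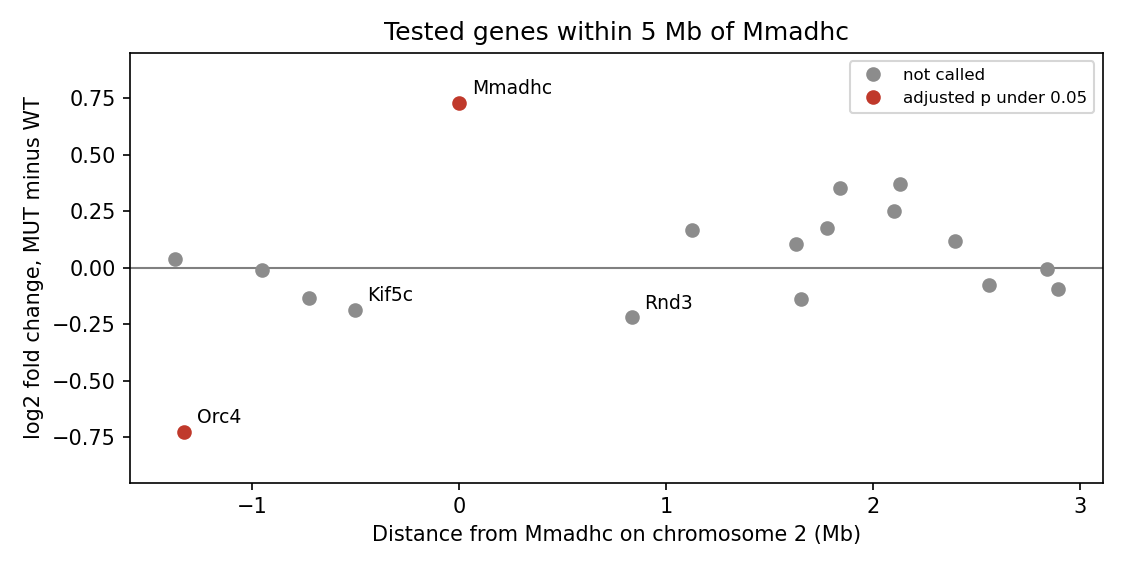
Log2 fold change, MUT minus WT (y axis), of the tested genes within 5 Mb of Mmadhc against their distance from it in Mb (x axis, negative toward Lrrc8a); red points have a limma adjusted p under 0.05. Mmadhc at 0.73 and Orc4 at -0.72 stand apart from neighbours that lie between -0.22 and 0.37.

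The 5 tested genes with the profile nearest to that of Mmadhc over the 4 libraries, by Euclidean distance of centred log2(CPM + 0.5), were Acot1 (distance 0.0604), Sept14 (0.0863), Nrk (0.121), Clcn5 (0.139) and Uhmk1 (0.143). Acot1, a cytosolic acyl-CoA thioesterase gene, had 1.25 and 1.32 CPM in the MUT libraries, against 0.519 and 0.623 CPM in the WT libraries. It rests on 61 and 54 reads in MUT and 35 and 31 reads in WT libraries, and reached 1 CPM only in the MUT libraries. It was not called (limma adjusted p = 0.0706). Its ratio of mean CPM, MUT over WT, was 2.25, against 1.66 for Mmadhc, so its nearness depends on the added 0.5 CPM. The other 4 ranged over 3.08 to 11.2 CPM in the MUT libraries, against 1.65 to 6.63 CPM in the WT libraries. With 4 libraries this likeness describes little more than a similar gap between genotypes on the log2(CPM + 0.5) scale. None of the 5 lies on chromosome 2.

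Around the route, 4 lists of related genes held 71 symbols. Of these, 65 were tested and 0 were called in either direction by limma, edgeR or DESeq2. Limma called 0.749% of all tested genes, so 0 of 65 lies near that share and says little about these genes. Over all tested genes edgeR called 75 higher and 41 lower, and DESeq2 94 higher and 72 lower. By limma 10 of the 65 had an unadjusted p under 0.05, against 14.7% of all tested genes. By edgeR the count was 10 and by DESeq2 6, and their shares over all tested genes are not given here. In the list of carriers, outer receptors and regulators of Mmachc, 5 of 9 genes were above 0 and the median log2 fold change was 0.0038. Tcn2, which encodes transcobalamin, had 22.0 and 26.2 CPM in the MUT libraries, against 20.8 and 17.7 CPM in the WT libraries (log2 fold change 0.32, SE 0.102, limma adjusted p = 0.152). Both MUT libraries were higher. Cubn, which encodes the intestinal and renal receptor cubilin, was added outside this rule after its values were seen. It had 4.45 and 5.06 CPM in the MUT libraries, against 5.89 and 6.96 CPM in the WT libraries (log2 fold change -0.40, SE 0.128, limma adjusted p = 0.154). Its MUT libraries were both lower, so the list held differences of either sign. Hcfc1, the regulator of Mmachc whose human defect is known as cblX, had 60.4 and 61.3 CPM in the MUT libraries, against 49.9 and 51.3 CPM in the WT libraries (0.26, SE 0.0725, limma adjusted p = 0.0932). Its DNA-binding partners, named here for that role, had log2 fold changes of -0.06 (Thap11) and -0.07 (Zfp143) and were not called. Thap11 had 10.1 and 10.2 CPM in the MUT libraries, against 10.9 and 10.3 CPM in the WT libraries, while Zfp143 had 13.8 and 15.9 CPM in the MUT libraries, against 15.8 and 15.5 CPM in the WT libraries.

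Around the mitochondrial branch, a list held 15 genes on or beside the route from propionyl-CoA and branched-chain amino acids to succinyl-CoA. Among those beside it were Suclg1, Suclg2, Sucla2 and Acsf3. It had a median log2 fold change of 0.04, a range of -0.25 to 0.48 and 8 genes above 0. Dbt, the transacylase of the branched-chain keto acid dehydrogenase, had 8.69 and 6.96 CPM in the MUT libraries, against 5.41 and 5.43 CPM in the WT libraries (0.48, SE 0.124, limma adjusted p = 0.076). Acadsb, which oxidises the isoleucine skeleton, had 26.9 and 24.5 CPM in the MUT libraries, against 21.3 and 22.7 CPM in the WT libraries (0.22, SE 0.0882, limma adjusted p = 0.241). In both genes the MUT libraries were higher without passing the test. Of the 20 methionine and homocysteine genes 16 were tested, with 10 above 0, a median of 0.09 and a range of -0.07 to 0.24. Bhmt, which remethylates homocysteine without cobalamin, had 58.2 and 72.1 CPM in the MUT libraries, against 61.0 and 52.1 CPM in the WT libraries. Mat2b, the regulatory subunit of methionine adenosyltransferase, had 10.6 and 13.4 CPM in the MUT libraries, against 9.57 and 10.96 CPM in the WT libraries, so both genes overlapped between genotypes.

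In the folate list 25 of 27 genes were tested, 15 were above 0, and the median log2 fold change was 0.05 in a range of -0.21 to 0.49. Gcsh, which encodes the lipoyl carrier of the glycine cleavage system, had 10.1 and 8.77 CPM in the MUT libraries, against 7.02 and 6.92 CPM in the WT libraries (0.41, SE 0.112, limma adjusted p = 0.0951). Folr2, a folate receptor gene known from macrophages, had 1.64 and 2.39 CPM in the MUT libraries, against 1.39 and 1.17 CPM in the WT libraries (0.49, SE 0.18, limma adjusted p = 0.212). Both were higher in the MUT libraries but not called. Of the macrophage markers given above, Mrc1 was higher and Cd74 lower in both MUT libraries, and their part in the level of Folr2 was not tested.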

How the data were processed

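Polyadenylated RNA was sequenced with a stranded kit, per the labels' protocols. The authors deposited 1 table of CPM, which per the submitters' processing notes involved TopHat2 2.0.10, HTSeq 0.6.0, edgeR 3.8.6 and build mm10, with roles and strand setting not given in the sources used here. Every deposited CPM was a whole multiple of the smallest in its library (100% within 0.001 of a whole read), which recovered the reads; a floor of 3 reads corresponds to 0.0445 to 0.0733 CPM and covers counting error only.

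Genes with at least 1 CPM in at least 2 libraries were tested on log2(CPM + 0.5) with limma 3.58.1 (trend; R 4.3.3; two-sided), applying the Benjamini-Hochberg correction across the 15364 genes; fold changes understate weak genes. Alternatives changed the pseudocount, filter, scaling, variance model, block and libraries, corrected GC content and length (99.1% of tested genes), or used edgeR 4.0.16 and DESeq2 1.42.0 on recovered reads. Only the main limma fit was run on simulated reads with known changes, and the other steps were not. Positions and lengths came from GENCODE vM21 (GRCm38, called mm10).

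Members and lists were chosen with earlier results of these data known. The text names all members, called list genes or otherwise the 2 with the smallest p, the 5 nearest profiles, 3 neighbours on each side and divergent or overlapping partners.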

Additional observations from a re-analysis of the deposited data

How the results depend on the processing

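Of the 9 cobalamin genes other than Mmadhc, 0 were called in any of the 17 alternatives. Mmadhc, on whose level the list was selected, had a log2 fold change of 0.70 to 0.76 in them, as a description. It accounts for every count of 1 of the 10 genes called higher, and without the variance trend that count was 0; neither is evidence of stability. Leaving out 1 library gave -0.16 to 0.044 for Cd320 and -0.051 to 0.022 for Lmbrd1; both signs turned without MUT 1, and that of Lmbrd1 also with the total without the 100 most abundant genes (0.0080). That scaling moved the median over all tested genes from -0.0016 to 0.0199. For Abcd4, DESeq2 gave no adjusted p and the filter at 5 CPM left it out.

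Over all genes, against 74 higher and 41 lower calls, the counts were 7 and 4 without the filter, 35 and 18 after quantile normalization, 5 and 2 without the trend, 113 higher with the total without the 100 most abundant genes (37 lower), 41 higher after GC and length correction (29 lower) and 72 lower with DESeq2 (94 higher). Leaving out 1 library gave 71 to 115 higher and 43 to 165 lower; without WT 1 they were 115 and 165, and without MUT 2 105 and 89. The cause was not tested. With the replicate block, 57 and 31 were called; the labels give no reason for the numbers to pair. The deviations of same-numbered libraries from their group means were weakly opposed (correlation -0.134 over 15364 genes). The crossed pairing was added after seeing this, with 131 and 104 calls. Abcd4 is limited by depth, at 61 to 135 reads a library.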
